A study of Mus musculus with 201 samples.

Results

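Pam and the enzymes and binding proteins that turn prohormones into peptides were followed across a genetic panel of mouse hippocampus. The members were the probe sets of the expression array whose annotation names exactly 1 of Pam, Pcsk1, Pcsk2, Cpe, Scg5, Pcsk4 and Pcsk1n. They came to 7 of 45037 probe sets and covered 6 of the 7 genes. Cpe had 2 probe sets (1415949_at and 1439437_x_at), and Pam (1418908_at), Scg5 (1423150_at), Pcsk1n (1416965_at), Pcsk1 (1421396_at) and Pcsk4 (1425824_a_at) had 1 each. No probe set was matched to Pcsk2, the main convertase of most neurons, so its level was not analysed here. In the RefSeq annotation of the mouse assembly GRCm38.p6, Pam lies on chromosome 1, Scg5 and Pcsk2 on chromosome 2, Cpe on chromosome 8, Pcsk4 on chromosome 10, Pcsk1 on chromosome 13 and Pcsk1n on the X chromosome.

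The study hybridised hippocampal RNA of 100 mouse strains to 201 Affymetrix M430 2.0 arrays, usually with 1 array for a pool of males and 1 for a pool of females of each strain. By the labels 101 arrays were female, 99 male and 1 of both sexes, a pool held 1 to 4 mice (median 3), and mean ages ran from 41 to 196 days (median 62). Both hippocampi were dissected whole, and the protocol names the subiculum and the fimbria as tissue that may be present in differing amounts. The replicates of a strain were pools, in most strains of opposite sex, so a difference between 2 arrays of a strain also holds any difference between the sexes.

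The strains fell into the following sets. The 39 later BXD strains (76 arrays) and the 29 earlier BXD strains (58 arrays) are recombinant inbred lines from DBA/2J and C57BL/6J, and some of the later lines were not yet fully inbred. The 13 CXB strains (27 arrays) are lines of the same kind whose parents were BALB/cByJ and C57BL/6ByJ. B6D2F1 and D2B6F1 are the reciprocal hybrids of C57BL/6J and DBA/2J (6 arrays). The 4 wild-derived inbred strains (7 arrays) were CAST/EiJ, PWD/PhJ, PWK/PhJ and WSB/EiJ. The 13 classical inbred strains (27 arrays) were DBA/2J, 129S1/SvImJ, A/J, AKR/J, BALB/cByJ, BALB/cJ, C3H/HeJ, C57BL/6ByJ, C57BL/6J, KK/HIJ, LG/J, NOD/LtJ and NZO/HlLtJ. None of the mice carried an engineered allele or received a treatment by the labels.

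Peptide hormones and neuropeptides are made as long precursors and are cut and finished inside dense-core secretory vesicles. The prohormone convertases, encoded by Pcsk1 and Pcsk2, cut the precursor at pairs of basic residues, and carboxypeptidase E, encoded by Cpe, trims the basic residues left at the end. Peptidylglycine alpha-amidating monooxygenase, encoded by Pam, then turns an exposed glycine into the terminal amide that many neuropeptides need for activity, in a reaction that uses copper and ascorbate. Scg5 encodes 7B2, the chaperone and inhibitor of the convertase made from Pcsk2, and Pcsk1n encodes proSAAS, an inhibitor of the convertase made from Pcsk1. Pcsk4 encodes a convertase known mainly from germ cells.

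Levels are given in PDNN units, the score of a probe set on an array after the submitters' model of probe binding and rescaling. These units are log-like, but of an unstated base, so differences are given in units and never as folds. A strain value is the fitted level of the strain after terms for sex and array batch, and the spread between arrays is the SD left after strain, sex and batch. The arrays were scaled alike, with array means of 8.06 to 8.10 units. The file headers of 7 arrays disagreed with their labels and groups follow the labels here; without these arrays the BXD strain values of Pam and Scg5 had SDs of 0.406 and 0.379 units, beside 0.404 and 0.378 with them. Markers of pyramidal neurons (4 genes) averaged 9.33 to 10.05 units over the arrays, those of dentate granule neurons (4 genes) 8.03 to 8.81, and those of choroid plexus (6 genes) 7.88 to 9.55, so the choroid plexus markers differed most between arrays.

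Across the 68 BXD strains, Pam and Scg5 differed widely between strains, and the other 5 probe sets had no called difference. The SD of the BXD strain values was 0.404 units for Pam against a spread between arrays of 0.101, and 0.378 units for Scg5 against 0.121. For Pcsk1n the SD between strains was 0.129 units and the spread between arrays 0.207. For the first and second Cpe probe sets, Pcsk1 and Pcsk4 the SDs between strains were 0.0584, 0.0704, 0.0731 and 0.0553 units, each below the spread between arrays of that probe set. This spread is that of single arrays, whereas most strain values rest on 2 arrays. An SD below it therefore does not show that the strains are alike. In limma's F-test over all probe sets, 2 of the 7 passed an adjusted p of 0.05, against 6.95% of all probe sets.

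**Figure D1:**
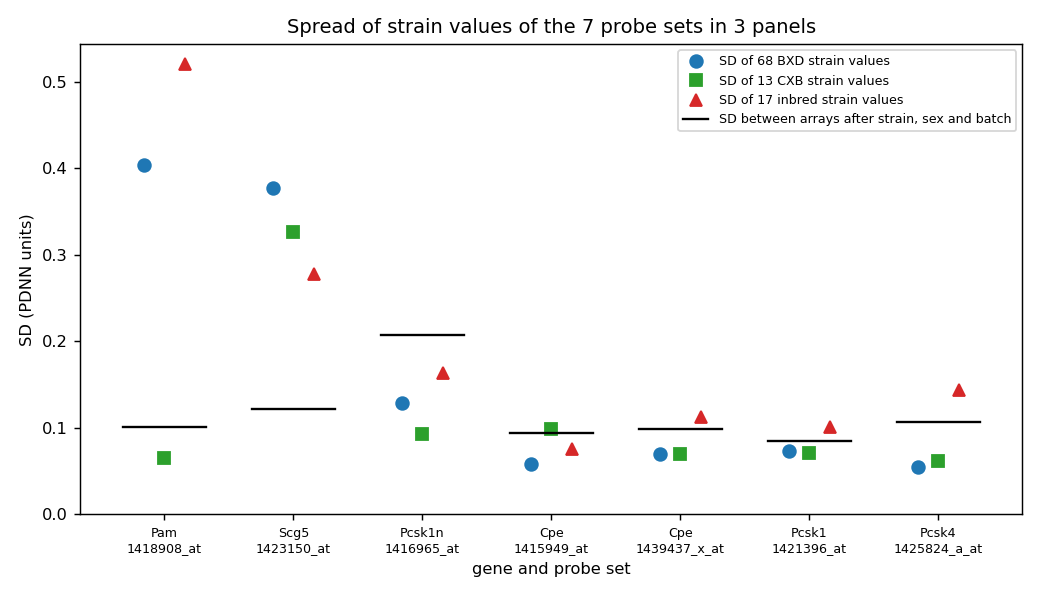
SD of fitted strain values (PDNN units, vertical axis) of each of the 7 probe sets in the BXD, CXB and inbred panels, with a black line at the SD left between arrays after strain, sex and batch. Pam stands above its line in the BXD and inbred panels and below it in the CXB panel, whereas Scg5 stands above its line in all 3 panels.

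Pam, the amidating enzyme, had 2 separate ranges of values in the BXD panel. Single arrays ran from 8.37 to 9.51 units with a median of 8.65, and strain values ran from 8.40 in BXD73a (arrays 8.37 and 8.48) to 9.48 in BXD62 (arrays 9.39 and 9.49). In 39 strains the value lay between 8.40 and 8.65, and in 29 strains between 9.18 and 9.48. The empty stretch between BXD33 (8.65) and BXD75 (9.18) spanned 0.53 units, 49.4% of the whole range, while the next widest gap was 0.053 units.

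The Pam ranges did not meet on any single array. The highest array of the lower range was the male pool of BXD29 at 8.87 units, and the lowest array of the upper range was the male pool of BXD61 at 9.06. The arrays of 1 strain differed by a median of 0.0995 units over the 64 strains with 2 or more arrays, and by at most 0.404 (BXD29). The fitted values of the parents were 9.34 units for DBA/2J and 8.55 for C57BL/6J, and their mean, 8.95, fell in the empty stretch. Of the BXD strains, 29 lay above the mean of the parents and 39 below it, and 0 of the 64 strains with more than 1 array had arrays on both sides. The intraclass correlation of the strains was 0.942, and limma's F-test gave an adjusted p of 5.16e-40.

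**Figure D2:**
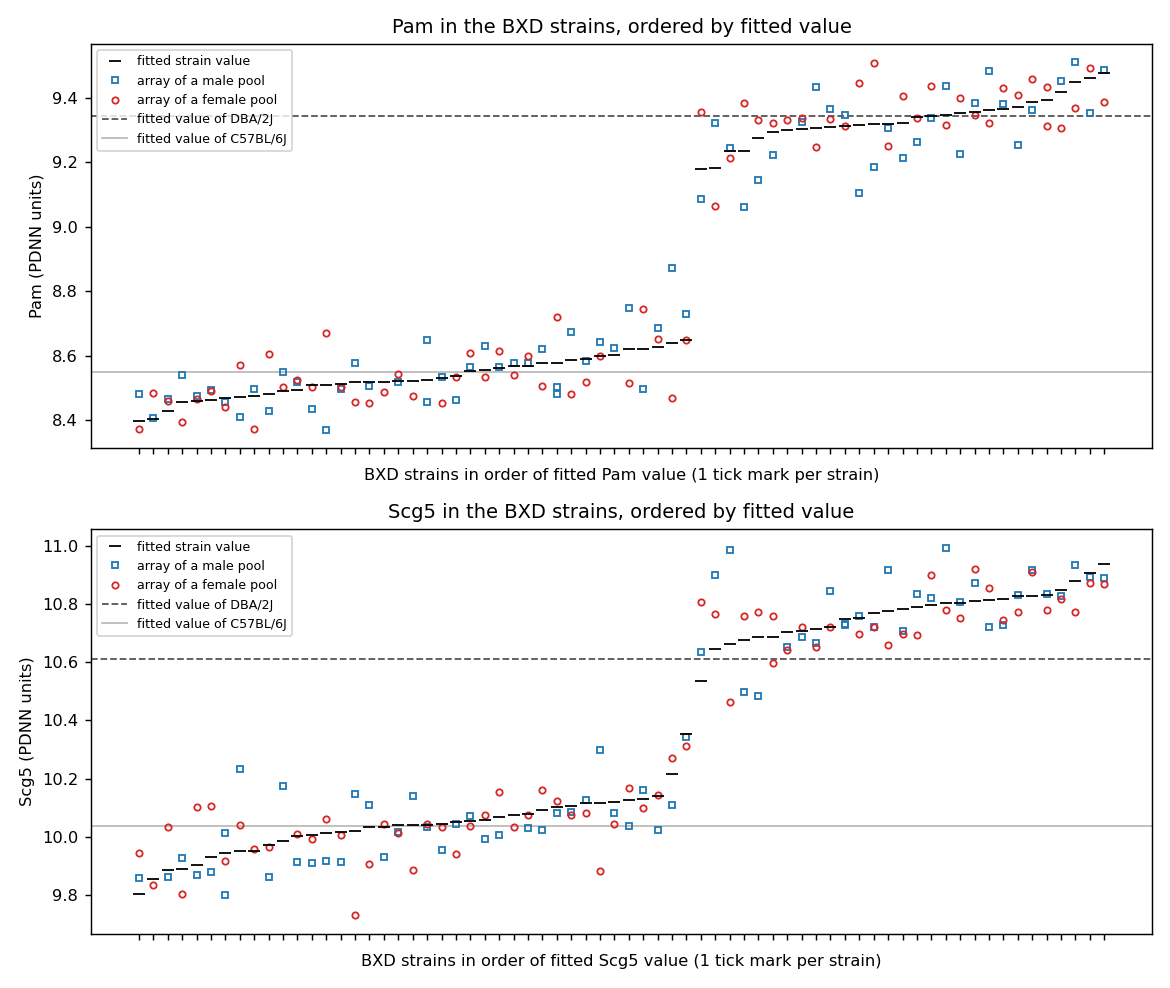
PDNN values of Pam and of Scg5 (vertical axes) in the 68 BXD strains, each panel ordered by its own fitted strain value (horizontal axis), with squares for male pools, circles for female pools, dashes for fitted strain values, a dashed line for DBA/2J and a solid grey line for C57BL/6J. Pam breaks between 8.65 and 9.18 units, and Scg5 has its widest gap between 10.35 and 10.54.

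Scg5, the 7B2 chaperone, also had a lower and an upper range, with a less clean boundary. Arrays ran from 9.73 to 10.995 units (median 10.16), and strain values from 9.80 in BXD1 (arrays 9.86 and 9.94) to 10.94 in BXD8 (arrays 10.87 and 10.89). The widest gap, 0.184 units, lay between BXD70 (10.35) and BXD14 (10.54) and left 39 strains below and 29 above. The next widest gap, 0.137 units, was close to it in size. BXD70, with arrays at 10.31 and 10.34, was the only strain with arrays on both sides of the parents' mean of 10.32, and with it 30 strains lay above that mean and 38 below. Arrays of 1 strain differed by a median of 0.097 units and by at most 0.524, in BXD21, whose arrays read 10.99 and 10.46. The intraclass correlation was 0.940 and the adjusted p of limma's F-test 7.36e-32.

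The deposited MAS5 summary of the same arrays, another way of condensing the probes into 1 value, put the same strains in the same ranges. For Pam the MAS5 strain values lay between 8.69 and 9.44 units in 39 strains and between 10.97 and 11.52 in 29, a gap of 1.53, and all 39 lower strains were those of the PDNN values. For Scg5 they lay between 11.45 and 12.02 units in 39 strains and between 12.46 and 12.83 in 29, again with the same 39 strains below. The MAS5 values of DBA/2J and C57BL/6J were 11.23 and 8.95 units for Pam, inside the upper and the lower range. For Scg5 C57BL/6J was inside the lower range at 11.76, and DBA/2J was just below the upper range at 12.44. Over the 68 strains the PDNN and MAS5 values correlated at 0.992 for Pam and 0.982 for Scg5. The correlation was 0.835 for Pcsk1n, 0.691 for Pcsk1, 0.662 for the second Cpe probe set, 0.640 for Pcsk4 and 0.339 for the first Cpe probe set, with a median over all probe sets of 0.591. Both summaries read the same probes, so they are not independent measurements of a strain. Pam and Scg5 were each read by 1 probe set, and no probe sequences were examined. Whether a sequence difference between strains under these probes shifts the readings was not tested.

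High Pam and high Scg5 occurred together in some strains and apart in others. Above the parents' mean for both genes were 12 strains, BXD11, BXD14, BXD20, BXD23, BXD24, BXD28, BXD32, BXD61, BXD64, BXD70, BXD76 and BXD83. Above it for Pam and below it for Scg5 were 17 strains, BXD5, BXD6, BXD13, BXD15, BXD22, BXD34, BXD39, BXD62, BXD63, BXD65, BXD65a, BXD67, BXD75, BXD77, BXD93, BXD94 and BXD98. Below it for Pam and above it for Scg5 were 18 strains, BXD8, BXD12, BXD16, BXD19, BXD21, BXD27, BXD29, BXD38, BXD40, BXD42, BXD50, BXD66, BXD74, BXD79, BXD84, BXD89, BXD90 and BXD99. The remaining 21 strains were below it for both genes, so all 4 combinations of the parental levels were present. High Scg5 was found in 12 of the 29 strains above the mean for Pam and in 18 of the 39 below it.

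Within the Pam ranges, Scg5 did not track Pam. The correlation of Pam and Scg5 was -0.13 over the 29 strains of the upper Pam range and -0.08 over the 39 of the lower one. Lines that carry the same number with a letter added did not always share a range: BXD65 (9.42 units) and BXD65a (9.32) were in the upper Pam range and BXD65b (8.46) in the lower one, while BXD73 (8.46) and BXD73a (8.40) were both low. BXD48 (8.52) and BXD48a (8.47) were both low as well.

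**Figure D3:**
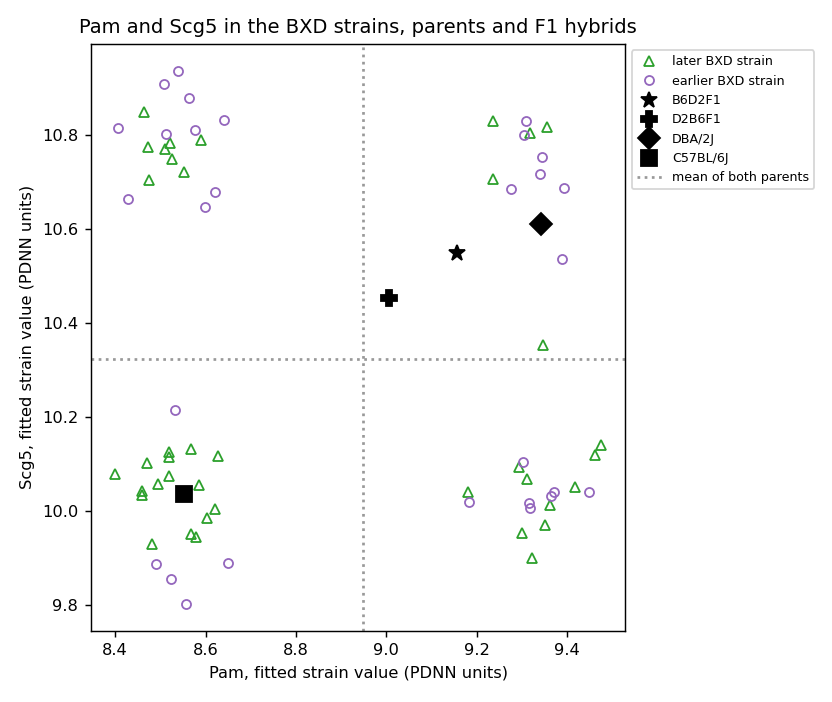
Fitted Pam value (horizontal axis) against fitted Scg5 value (vertical axis), both in PDNN units, of each BXD strain, both F1 hybrids, DBA/2J and C57BL/6J, with dotted lines at the mean of DBA/2J and C57BL/6J. The BXD strains fill all 4 fields, with 12 above both lines, 17 above the line for Pam alone, 18 above the line for Scg5 alone and 21 below both.

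The other processing genes had no called difference between BXD strains. Pcsk1n, the proSAAS inhibitor, had arrays from 9.35 to 10.65 units (median 10.32) and strain values from 9.76 in BXD65a to 10.55 in BXD67. Its lowest strain was set by 1 array, since the arrays of BXD65a read 10.35 and 9.35, the widest disagreement within a BXD strain for this gene (0.999 units). The adjusted p of limma's F-test was 1 for Pcsk1n, for both Cpe probe sets and for Pcsk4, and 0.951 for Pcsk1. These p-values do not show that the strains have the same level, since the spread between arrays sets how small a difference could be seen. The intraclass correlation of the strains was 0.289 for Pcsk1. For the others it ran from -0.0039 (second Cpe probe set) to 0.133 (first Cpe probe set).

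Cpe, the trimming carboxypeptidase, ranged from 11.22 to 11.63 units over arrays at its first probe set (median 11.46) and from 8.05 to 8.63 at its second (median 8.38). Strain values of its first probe set ran from 11.30 (BXD9) to 11.59 (BXD94) and those of its second from 8.22 (BXD45) to 8.64 (BXD9). The probe sets of this 1 gene did not rank the strains alike, with a correlation of -0.43 over the 68 strains. Neither had a called strain difference and their values share arrays and scaling, so whether this correlation reflects the strains was not tested. Pcsk1 arrays ran from 7.61 to 8.09 units (median 7.82) and Pcsk4 arrays from 7.65 to 8.06 (median 7.81). Among pairs of different members the strongest correlations over the 68 strains were 0.50 between Pcsk1 and the second Cpe probe set and -0.49 between Pcsk1n and the second Cpe probe set, all in probe sets without a called strain difference, whose values share arrays and their scaling.

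Most neighbouring genes of the members did not pass the test of the BXD strains, and neither did most probe sets of the array. Of the 4 measured genes on either side of Pam, 1 of 8 passed the test of the BXD strains (6.95% of all probe sets). This was Gin1, a gene next to Pam, with an SD of 0.081 units and an adjusted p of 0.0216. Of the 8 neighbours of Scg5, among them Grem1, a secreted BMP antagonist, and Actc1, the cardiac actin, 0 passed. Near Cpe, Spock3, a secreted proteoglycan, passed with an SD of 0.206 units and an adjusted p of 3.90e-08, although Cpe itself did not. None of the 8 neighbours each of Pcsk1n, Pcsk1 and Pcsk4 passed limma's F-test.

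The genes whose strain values were most like those of Pam and Scg5 lay mostly on the same chromosomes. By Pearson correlation over the 68 BXD strains these were, for Pam, Farp2 (0.70), Clasp1 (0.66), Scly (0.57) and R3hdm1 (0.51), all on chromosome 1, and Zfp608 (0.51) on chromosome 18. For Scg5 they were Tmem87a (0.79), Ccndbp1 (0.73), Pla2g4e (0.73), Bloc1s6 (0.72) and Zscan29 (0.69), all on chromosome 2. In the order of measured genes on chromosome 1, Farp2 stood 21 places from Pam, Clasp1 29 and R3hdm1 66, and on chromosome 2 Pla2g4e stood 63 places from Scg5 and Bloc1s6 117.

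A correlation over all 68 strains mixes the step between the ranges with the order inside them, so it was also taken within each range. The genes had been picked for a high correlation over these same strains. Within the 29 upper and the 39 lower strains for Pam, the correlation with Farp2 was 0.07 and -0.14. With Clasp1, a microtubule-binding protein, it was 0.56 and 0.31, the highest of the 5 genes. It was 0.13 and -0.03 with Scly, 0.38 and 0.16 with R3hdm1, and 0.28 and 0.19 with Zfp608. Within the upper and lower ranges of Scg5, the correlation with Tmem87a, a Golgi membrane protein, was 0.15 and 0.07. With Ccndbp1, a cyclin D binding protein, it was 0.75 and 0.43, again the highest of the 5 genes. It was 0.19 and 0.21 with Pla2g4e, 0.11 and 0.06 with Bloc1s6, and -0.20 and -0.01 with Zscan29. Of the 5 genes most like each of the other members, 1 for Cpe (Gpm6a, a neuronal membrane glycoprotein) and 0 for Pcsk1n, Pcsk1 and Pcsk4 lay on the member's own chromosome. Cpe was most like Ywhag (0.88), a 14-3-3 protein, and Snap25 (0.82), a protein of the synaptic fusion machinery. The convertase gene Pcsk5 (0.75) was among the 5 most like Pcsk1. In limma's F-test in the BXD panel, 4 of the 5 genes most like Pam and 5 of the 5 most like Scg5 passed, against 6.95% of all probe sets. These genes were picked for likeness to members that themselves passed. Of the 5 genes most like Pcsk1n, Cpe, Pcsk1 and Pcsk4 each, 0 passed, and neither did these members. Their values share arrays and scaling, and whether these correlations reflect the strains was not tested.

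In the CXB panel Scg5 again fell into 2 ranges, and Pam did not differ. Scg5 strain values lay between 9.96 (CXB3) and 10.14 (CXB2) in 7 strains, CXB2, CXB3, CXB4, CXB5, CXB6, CXB7 and CXB13. They lay between 10.57 (CXB8) and 10.74 (CXB1) in the other 6, with a gap of 0.43 units. Single arrays of the lower strains ran from 9.77 (CXB13) to 10.37 (CXB5) and those of the higher strains from 10.50 (CXB12) to 10.89 (CXB10), so the arrays did not overlap. The arrays of 1 strain differed by a median of 0.205 units and by up to 0.567, in CXB13, whose arrays read 10.33 and 9.77.

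Pam ran only from 8.44 in CXB2 to 8.69 in CXB11, with arrays between 8.36 and 8.80, so every CXB array lay below every array of the upper Pam range in the BXD panel. The SD of the 13 CXB strain values was 0.326 units for Scg5 and 0.0656 for Pam, and limma's F-test gave an adjusted p of 1.05e-14 for Scg5 and 0.763 for Pam. Scg5 was thus 1 of 7 probe sets called, against 4.2% of all. The first Cpe probe set had an unadjusted p of 0.00768 and an adjusted p of 0.120, and its lowest strain, CXB5, held an array at 10.79 units beside others at 11.40 and 11.51.

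Between the parents of the BXD panel, Pam and Scg5 were higher in DBA/2J than in C57BL/6J, and the other members did not pass the test. Pam had 9.42 and 9.30 units in DBA/2J, against 8.58, 8.37 and 8.64 in C57BL/6J. Scg5 had 10.86 and 10.54 units in DBA/2J, against 9.82, 10.16 and 10.04 in C57BL/6J. For both genes each DBA/2J array was above each C57BL/6J array. Both DBA/2J arrays were of female pools, in batches 7 and 5. The C57BL/6J arrays, in the order given, were of female, male and male pools in batches 6, 1 and 5. The fitted difference was 0.79 ± 0.0937 units for Pam (SE; 2 arrays against 3; adjusted p = 2.77e-10 in limma) and 0.57 ± 0.113 for Scg5 (adjusted p = 1.56e-04 in limma). These were 2 of 7 probe sets called, against 7.24% of all probe sets.

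None of the remaining members passed the test between these parents. Pcsk1n had 10.43 and 9.84 units in DBA/2J, against 10.15, 10.42 and 10.50 in C57BL/6J, with a fitted difference of -0.34 ± 0.191 (adjusted p = 0.365). The interval of 2 SE each side ran from -0.73 to 0.04 units. Pcsk1n was thus the least well bounded of the members, since the interval for the first Cpe probe set ran from -0.17 to 0.18, for the second from -0.31 to 0.06, for Pcsk1 from -0.14 to 0.17 and for Pcsk4 from -0.21 to 0.19. In batch 5, which held 1 array of each parent, Pam read 9.30 in DBA/2J and 8.64 in C57BL/6J, and Scg5 read 10.54 in DBA/2J and 10.04 in C57BL/6J. On the same arrays Pcsk1n read 9.84 in DBA/2J and 10.50 in C57BL/6J, a difference of -0.655, close in size to that of Pam (0.658). The differences in this batch were -0.005 and -0.147 units for the first and second Cpe probe sets, 0.179 for Pcsk1 and -0.121 for Pcsk4.

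Some cell markers also differed between the parental arrays, while a ratio of RNA quality overlapped. Of the dentate granule markers 2 of 4 were lower in DBA/2J, C1ql2 (-0.68 units) and Tdo2 (-0.38), and the mean of the 4 was 8.19 and 8.33 on the DBA/2J arrays and 8.31 to 8.70 on the C57BL/6J arrays. Of 5 thalamus markers Prkcd was lower (-0.32), and of 6 astrocyte markers Gfap was lower (-0.99) and Slc1a3 higher (0.33), and the means overlapped, at 9.86 to 9.90 in DBA/2J and 9.85 to 10.12 in C57BL/6J. None of 7 interneuron markers, 4 pyramidal neuron markers or 6 choroid plexus markers passed limma's test, where 7.24% of all probe sets passed. The 3'/5' ratio of Actb was 1.3 and 1.28 on the DBA/2J arrays, against 1.67, 1.14 and 1.68 on those of C57BL/6J. The part of these markers and ratios in the result was not tested, and in bulk tissue fewer cells of a type and less RNA per cell cannot be told apart.

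Between the parents of the CXB panel, Scg5 again read higher in BALB/cByJ, but the test did not pass with its single array. Scg5 was 10.78 units in BALB/cByJ, against 10.13 and 10.38 in C57BL/6ByJ, and Pam was 8.55 in BALB/cByJ, against 8.64 and 8.54 in C57BL/6ByJ. The Scg5 difference was 0.44 ± 0.149 units (SE; unadjusted p = 0.00435 and adjusted p = 0.171 in limma, where the lone array is taken to vary like the others). With quantile-normalised values its adjusted p was 9.58e-04. The Pam difference was -0.05 ± 0.124 units, and 0 of 7 probe sets passed, against 1.19% of all, with 2 of the 7 and 4107 of all at an unadjusted p under 0.05.

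The parental difference in Pam was larger in the BXD cross than in the CXB cross, and that in Scg5 was not told apart between the crosses. The difference of DBA/2J from C57BL/6J exceeded that of BALB/cByJ from C57BL/6ByJ by 0.84 ± 0.154 units for Pam (adjusted p = 2.96e-04 in limma) and by 0.14 ± 0.185 for Scg5 (adjusted p = 0.960). The interval for Scg5 ran from -0.23 to 0.51 units. Pam was 1 of 7 probe sets called in this contrast, against 0.719% of all. The contrast was chosen after the values of both crosses had been seen.

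The F1 hybrids lay between their parents for both genes. Pam had 9.19 and 9.04 units in B6D2F1 and 8.99, 9.06 and 8.90 in D2B6F1, where the second B6D2F1 value is the mean of a technical pair, so all 5 values lay below both DBA/2J arrays and above all 3 C57BL/6J arrays. Scg5 had 10.49 and 10.49 units in B6D2F1 and 10.55, 10.35 and 10.35 in D2B6F1. The highest of these, at 10.55, reached the lower DBA/2J array (10.54), and all were above the C57BL/6J arrays. Against the mean of the parents the hybrids differed by 0.13 ± 0.0658 units for Pam (9.08 in the hybrids and 8.95 for the parents' mean; unadjusted p = 0.0442 in limma) and by 0.18 ± 0.0792 for Scg5 (10.50 in the hybrids and 10.32 for the parents' mean; unadjusted p = 0.0268 in limma). The adjusted p was 1.00 for both genes. In limma's test 0 of 7 probe sets passed, and so did 0% of all, while 1505 had an unadjusted p under 0.05.

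Among the 17 inbred strains Pam covered the widest range of any panel. The highest values were those of 3 wild-derived strains, PWK/PhJ at 9.98 units (arrays 10.00 and 9.93), PWD/PhJ at 9.93 (10.01 and 9.89) and CAST/EiJ at 9.69 (1 array). A middle group of classical strains followed, DBA/2J at 9.34, 129S1/SvImJ at 9.27 (arrays 9.29 and 9.22) and NOD/LtJ at 9.23 (9.20 and 9.24). KK/HIJ (8.82), NZO/HlLtJ (8.78) and LG/J (8.67) came next.

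The remaining 8 strains lay close together, from C57BL/6ByJ at 8.58 to C3H/HeJ at 8.51. They included the wild-derived WSB/EiJ at 8.56 (arrays 8.59 and 8.51), BALB/cByJ at 8.53 and C57BL/6J at 8.55. In this order, with the F1 hybrids included, the only neighbours more than 2 SE apart were CAST/EiJ over DBA/2J (0.34 ± 0.125 units) and the hybrid D2B6F1 over KK/HIJ (0.19 ± 0.0923). All other neighbours lay within 2 SE of each other.

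**Figure D4:**
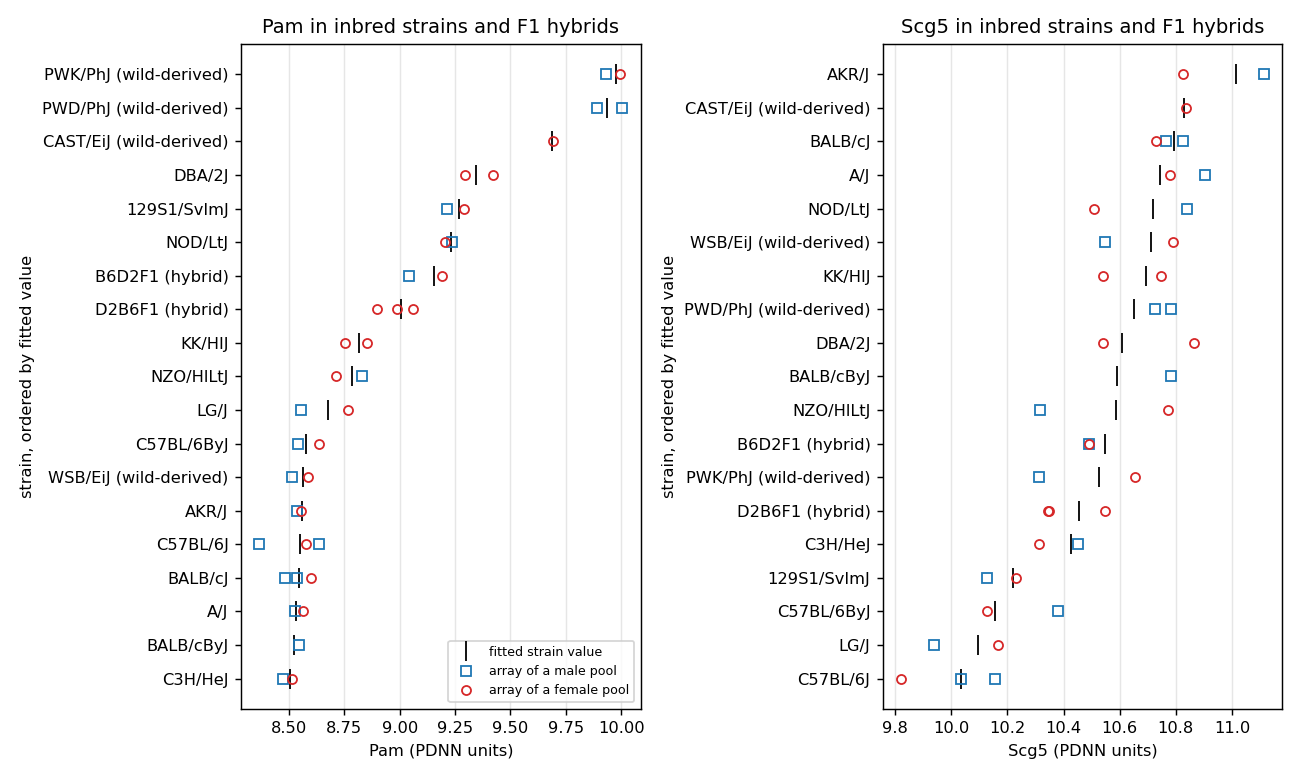
PDNN values (horizontal axes) of Pam and Scg5 on each array of the 17 inbred strains and both F1 hybrids, ordered by fitted strain value, with squares for male pools, circles for female pools and a bar at the fitted value. PWK/PhJ, PWD/PhJ and CAST/EiJ have Pam arrays at 9.69 units or more, while Scg5 arrays of neighbouring strains overlap along most of the order.

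Scg5 varied among the inbred strains without clear steps. Its highest strains were AKR/J at 11.01 units and CAST/EiJ at 10.83, and its lowest were C57BL/6J at 10.04, LG/J at 10.09, C57BL/6ByJ at 10.15 and 129S1/SvImJ at 10.22. No 2 neighbours in its order lay more than 2 SE apart. The order differed from that of Pam: 129S1/SvImJ was high for Pam and low for Scg5, and AKR/J (8.56 for Pam) was the reverse.

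In the F-test over the 17 inbred strains 4 of 7 probe sets passed, against 43.5% of all. Pam (SD 0.521 units, adjusted p = 1.37e-36) and Scg5 (SD 0.278, adjusted p = 2.20e-14) were joined by Pcsk4 (SD 0.144, adjusted p = 4.71e-04) and Pcsk1 (SD 0.101, adjusted p = 0.00360). The Pcsk4 call rested on 1 array of C57BL/6ByJ, without which its SD was 0.0474 units and its adjusted p 0.760, with 42.2% of all probe sets called. Pcsk1 ran from 7.62 in NZO/HlLtJ to 7.95 in PWD/PhJ, and it did not pass with MAS5 values (adjusted p = 0.552), without a batch term (0.0730), without arrays of an RMA outlier share of 0.1 or more (0.0502) or with the arrays of this panel fitted alone (0.310). Pcsk4 did not pass with MAS5 values or with the panel alone either (adjusted p = 0.601 and 0.388), while the second Cpe probe set passed with MAS5 values (0.0219) and without KK/HIJ replicate 1 (0.0324).

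Pam read higher in the wild-derived than in the classical strains, at the edge of the threshold. The mean of the strain values was 9.54 units in the 4 wild-derived strains and 8.76 in the 13 classical strains, a difference of 0.78 ± 0.215 (SE; adjusted p = 0.0507 in limma on strain values). The sets overlapped, since WSB/EiJ lay at the level of the low classical strains, and without WSB/EiJ the difference was 1.10 units with an adjusted p of 9.68e-04. The second Cpe probe set differed by 0.15 units (adjusted p = 0.0994), with the single CAST/EiJ array at 8.71 the highest of all arrays. Of the 7 probe sets 0 passed, against 3.9% of all, and 2 of the 7 and 12129 of all had an unadjusted p under 0.05.

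Some cell markers also differed across this division, and RNA quality was uneven among the wild-derived strains. By limma's test 2 of 6 astrocyte markers were lower in the wild-derived strains, Slc1a3 (-0.73 units) and Aqp4 (-0.35), as were 2 of 6 choroid plexus markers, Kl (-0.74) and Kcne2 (-0.53), and 1 of 4 dentate granule markers, Dsp (-0.71). None of the interneuron, pyramidal neuron or thalamus markers passed this test, where 3.9% of all probe sets passed. The astrocyte markers averaged 9.62 to 9.79 units on the wild-derived arrays, against 9.79 to 10.15 on the classical ones, the dentate granule markers 8.03 to 8.40 against 8.17 to 8.72, and the choroid plexus markers 8.23 to 8.85 against 7.88 to 9.29. The 5 arrays of PWK/PhJ, PWD/PhJ and CAST/EiJ, the strains with high Pam, had Actb 3'/5' ratios of 1.89 to 4.65 and RMA outlier shares of 0.07 to 0.15. Those of WSB/EiJ had ratios of 1.44 and 1.32 and shares of 0.02 and 0.04, and the classical arrays had ratios of 1.13 to 3.71 (median 1.67) and shares of 0.01 to 0.19 (median 0.04). Without the arrays of an outlier share of 0.1 or more, which include the only one of CAST/EiJ, the Pam difference was 0.76 units (adjusted p = 0.127 in limma). The part of the markers and ratios in the result was not tested.

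Other divisions of the strains and mice gave no called difference in limma's tests. KK/HIJ and NZO/HlLtJ, strains known for obesity and diabetes, differed from the other 11 classical strains by 0.04 ± 0.224 units for Pam (8.80 in these strains and 8.76 in the other 11) and by 0.15 ± 0.215 for Scg5 (10.64 in these strains and 10.49 in the other 11), with 0 of 7 called against 0.0111% of all. The interval ran from -0.40 to 0.49 units for Pam, so the values left room for a difference within it in either direction. Later BXD strains had a mean Scg5 value of 10.28 units and earlier ones of 10.44, a difference of -0.17 ± 0.0887 (unadjusted p = 0.0612), with 13 of 39 later and 17 of 29 earlier strains above the parents' mean. For Pam these counts were 15 of 39 later and 14 of 29 earlier strains, and 0 of 7 probe sets passed, against 0.622% of all.

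Males and females did not differ in any member by limma's test, with 0 of 7 called against 0.118% of all. For the X-linked Pcsk1n the male minus female difference was -0.05 ± 0.0311 units, with means of 10.23 in males and 10.28 in females. For Pam it lay between -0.03 and 0.03 units. No member changed with the mean age of the pool (0 of 7, against 0.00222% of all), and the slope for Pcsk1n was 0.0229 ± 0.0123 units per 10 days. At an unadjusted p under 0.05, limma's tests had 0 of 7 members for sex, for age, for KK/HIJ and NZO/HlLtJ and for later against earlier BXD strains, and 1871, 1148, 2365 and 4396 of all probe sets in the same order.

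Pcsk4 was lower in C57BL/6J than in its sister substrain C57BL/6ByJ, through a single array. It had 7.85, 7.81 and 7.90 units in C57BL/6J, against 8.88 and 7.77 in C57BL/6ByJ. The value of 8.88 was the highest of all arrays, of which the next was 8.10 and the median 7.81, and the other C57BL/6ByJ array lay below all 3 of C57BL/6J. The fitted difference was -0.52 ± 0.0988 units (adjusted p = 0.00314 in limma), 1 of 7 called against 0.0799% of all probe sets. Without that array the difference was 0.04 units (adjusted p = 0.982), and with MAS5 values it was 0.03 (adjusted p = 0.992). The MAS5 values of the C57BL/6ByJ arrays, 8.54 and 8.31, lay inside the range of all other arrays, 7.49 to 9.19.

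**Figure D5:**
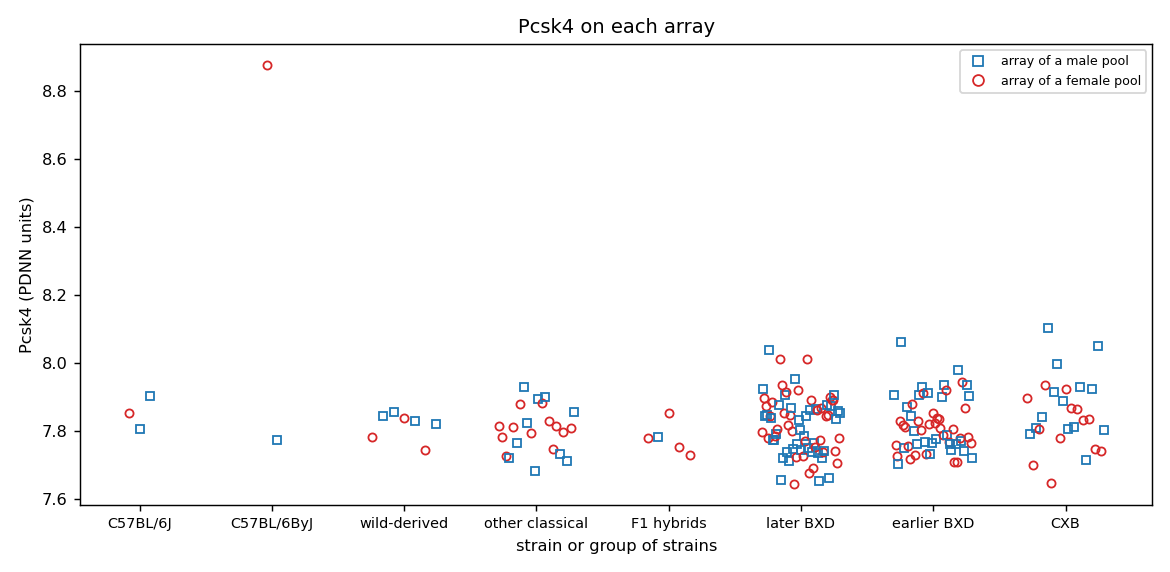
Pcsk4 on every array (PDNN units, vertical axis), by strain or group of strains (horizontal axis), with squares for male pools and circles for female pools. The female C57BL/6ByJ array at 8.88 units stands apart from all others, which lie at 8.10 or below.

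Other proteases of prohormone processing showed scattered strain differences in the BXD panel. Of 13 measured, 2 passed limma's F-test (6.95% of all probe sets), Rnpep, an aminopeptidase for basic residues (SD 0.0978 units), and Qpct, which forms the pyroglutamyl end of some peptides (SD 0.105). Furin, the general convertase of the secretory pathway (SD 0.0531), and Cpd, another trimming carboxypeptidase (SD 0.0507), did not pass. None of 10 granins and dense-core vesicle proteins passed, and the nearest was Scg2, secretogranin II (SD 0.0947, adjusted p = 0.0709). The median SD was 0.0661 units for the proteases and 0.0790 for the vesicle proteins, beside 0.0599 over all probe sets.

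Among the precursors of the peptides themselves, 3 of 17 that give amidated peptides passed in the BXD panel, where 6.95% of all probe sets passed. These were Vip (SD 0.154 units), Grp (0.143) and Tac2 (0.116), which encode vasoactive intestinal peptide, gastrin-releasing peptide and neurokinin B. Of 7 precursors of peptides without an amide, Nts, which encodes neurotensin, passed (SD 0.141). Npy, an amidated peptide of hippocampal interneurons, did not pass (SD 0.112, adjusted p = 0.636), and neither did Sst, which encodes somatostatin (SD 0.119, adjusted p = 0.907). Of 6 genes of copper and ascorbate supply Slc31a1, a copper importer, passed (SD 0.140), and of 5 relatives and binding partners of Pam 0 passed. The median SD was 0.0600 units for the amidated precursors, 0.0756 for the others, 0.101 for copper and ascorbate supply and 0.0832 for the relatives and partners.

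Between DBA/2J and C57BL/6J no gene of these lists was higher in DBA/2J by limma's test (4.61% of all probe sets were). Lower in DBA/2J (2.63% of all) were 2 of 13 proteases, Rnpep (-0.24 units, adjusted p = 0.0071) and Pcsk6 (-0.21, adjusted p = 7.74e-04). So were 2 of 7 precursors without an amide, Cort (-0.30), which encodes cortistatin, and Cartpt (-0.31). None of the 17 amidated precursors, 10 vesicle proteins, 6 copper and ascorbate genes or 5 Pam relatives passed. The median difference was -0.02 units for the amidated precursors and -0.10 for the vesicle proteins, beside -0.02 over all probe sets. Among the cell markers, 5 of 6 of choroid plexus, 2 of 7 of interneurons and 2 of 4 of dentate granule neurons passed limma's F-test in the BXD panel. So did 1 of 5 of thalamus, 0 of 6 of astrocytes and 0 of 4 of pyramidal neurons, against 6.95% of all probe sets. Over the 68 strains the mean of the choroid plexus markers correlated with Pam at 0.03 and with Scg5 at 0.11.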

How the data were processed

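The deposited PDNN score of each probe set on each array was used as given. Per the labels the authors rescaled each array, with 8 as the target mean and 2 as the target SD, whereas the PDNN arrays had SDs of 0.630 to 0.799. The deposited MAS5 score served as an alternative, and 2 other deposited array tables were not used. Probe sets were named through the platform annotation where it gives 1 gene symbol (34945 probe sets), and 64 control probe sets were left out. In R 4.3.3 with limma 3.58.1, levels were fitted on strain, sex and 7 batches over 199 columns with 92 residual degrees of freedom. A B6D2F1 technical pair was averaged, and the BXD9 array of mixed sex was left out. Comparisons of sets of strains used limma on fitted strain values. Adjusted p-values are Benjamini-Hochberg over 45037 probe sets, two-sided, with a threshold of 0.05. Intervals are 2 SE each side. Replicates are separate pools by the labels, and few arrays per strain limit precision. The methods were tested on simulated data. Named genes were all members, the fixed gene and marker lists (each gene through its probe set of highest mean), the 4 measured neighbours on either side in RefSeq order, and the 5 genes most correlated with each member over the BXD strains. The members and lists were chosen with earlier results of these data known.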

Additional observations from a re-analysis of the deposited data

Results flagged for a closer look

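The Pam difference between the parents of the BXD panel was larger than that between the parents of the CXB panel, with a difference of the differences of 0.843 ± 0.154 units (DBA/2J minus C57BL/6J 0.79, BALB/cByJ minus C57BL/6ByJ -0.05). The contrast was chosen after the values of both crosses had been seen, and BALB/cByJ had 1 array, taken to vary like the others.

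Among the 4 wild-derived strains, CAST/EiJ stood apart at the second Cpe probe set. Its fitted value was 8.74 units and the next highest 8.43, and this gap was 0.9305 of the whole range of the 4 strains. CAST/EiJ had 1 array, and 2 of the 4 wild-derived strains had pools of both sexes. The first Cpe probe set did not set CAST/EiJ apart, with a value of 11.54 units below the 11.56 of PWK/PhJ. Chance marks about 1 in 20 groups of this kind, and 7 probe sets were looked at.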

How the results depend on the processing

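Pam and Scg5 kept their strain effect in the BXD panel, Scg5 in the CXB panel, and both their differences between DBA/2J and C57BL/6J, under every alternative run. Over all members and comparisons, 1961 alternative values stayed on the same side of the threshold, 13 newly passed, 7 no longer passed and 2 turned direction from a called value. The 2 were Pcsk4 in C57BL/6J against C57BL/6ByJ, at 0.0272 with MAS5 values and 0.0444 without C57BL/6ByJ replicate 1. Another 85 of 1366 differences changed sign where neither value passed the test, so no direction is read from those. The number of called members moved as follows. For C57BL/6J against C57BL/6ByJ it was 0 with MAS5 values, 0 without dim probe sets (those averaging under 8, Pcsk4 among them), and 0 to 1 without single arrays. For BALB/cByJ against C57BL/6ByJ it was 1 (Scg5) with quantile normalization and 0 to 1 without single arrays, where leaving out C57BL/6ByJ replicate 2 gave a Pcsk4 difference of -1.03. For wild-derived against classical strains it was 1 (Pam) with quantile normalization, without dim probe sets and with age as a covariate, and 0 to 1 without single strains, where the call came without DBA/2J, 129S1/SvImJ, KK/HIJ, NOD/LtJ or WSB/EiJ. For the inbred panel, with 4 called, it was 2 without dim probe sets (of 5 tested), 2 with the panel's arrays alone, an alternative chosen after seeing the data, 3 with MAS5 values, without a batch term or without the outlier arrays, and 3 to 5 without single arrays (3 without C57BL/6ByJ replicate 1, 5 without KK/HIJ replicate 1). For the parental differences of the BXD against the CXB panel it was 1 to 2 without single arrays. The cause of these moves was not tested except where fewer probe sets or arrays entered.

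Counts over all probe sets moved more. The inbred panel had 19600 calls, but 12075 without dim probe sets, 9977 without arrays of an RMA outlier share of 0.1 or more, 12659 without wild-derived strains and 4835 with its arrays alone. The CXB panel had 1890, but 1109 without dim probe sets and 492 alone, and the BXD panel had 3129, but 1742 without dim probe sets. DBA/2J against C57BL/6J had 3260, but 1480 without a batch term, 2127 without dim probe sets and 1424 to 3379 without single arrays. C57BL/6J against C57BL/6ByJ had 36, but 67 with MAS5 values, 61 with quantile normalization and 11 to 35 without single arrays. BALB/cByJ against C57BL/6ByJ had 535, but 348 with MAS5 values, 311 without a batch term and 167 to 756 without single arrays, and the parental differences had 324, but 187 with MAS5 values, 213 without a batch term and 150 to 345 without single arrays. Wild-derived against classical strains had 1758, but 762 with MAS5 values, 880 without dim probe sets, 634 without the outlier arrays and 245 to 4160 without single strains. KK/HIJ and NZO/HlLtJ against other classical strains had 5, but 3 to 26 without single strains, 1 with MAS5 values and 0 without dim probe sets. Later against earlier BXD strains had 280, but 119 with MAS5 values and 179 without dim probe sets, and sex had 53, but 32 without dim probe sets. The F1 hybrids had 0, but 1 to 4 under MAS5 values, quantile normalization, no dim probe sets, the duplicate as a separate array, without arrays whose header disagrees with the labels and without D2B6F1 replicate 1, and age had 1 against 0 to 3. No paired analysis was possible because the replicate numbers follow the order of the accessions and pair no samples across strains.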

Other observations

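The array with the high Pcsk4 value, C57BL/6ByJ replicate 1, differed from C57BL/6ByJ replicate 2 by 1 unit or more at 86 probe sets. Over all 89 strains with exactly 2 values in the fit this number had a median of 23 and ran from 5 to 209, and C57BL/6ByJ stood at rank 6 from the top.

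Of the batch means of the members, those of Pcsk1n differed most, with a range of 0.16 units between its lowest and highest batch, beside 0.12 for Scg5 and 0.045 for Pam. On the array of BXD9 left out for its mixed sex, Pam read 8.57 units and Scg5 9.95, and on the BXD9 array that was used they read 8.48 and 9.83.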
